A study of Sus scrofa with 36 samples.

Results

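The genes described here are those of ribosome biogenesis and of RNA polymerases I and III in subcutaneous adipose tissue of the pig. They were chosen by symbol: names that begin with NOL, NOP, UTP, GNL, RRP or URB followed by a number, names that begin with POLR1, POLR3 or EXOSC, and the single genes NOB1, WDR74 and TAF4B, which the study had placed in a module made from these same samples. This rule found 58 of the 12253 genes measured, of which 8320 have a symbol, and a further 11 symbols that fit it were not analysed here. The 36 pigs came from an F2 intercross of Duroc and Göttingen minipigs and were chosen by the Obesity Index, a predicted genetic value for fatness. There were 12 lean pigs with a low index (7 males and 5 females), 12 intermediate pigs near the mean and 12 obese pigs with a high index (6 males and 6 females in each). No pig was treated, and each pig gave 1 library of polyadenylated RNA. The study limited the number of full sibs within a group but allowed them, so the pigs may not be fully independent of each other. All were slaughtered at a similar weight and therefore at different ages, oldest in the lean group, so age and obesity group cannot be told apart.

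Ribosomes are built in the nucleolus, where RNA polymerase I makes the long precursor of the ribosomal RNAs, while RNA polymerase III makes the small 5S ribosomal RNA and the transfer RNAs. The precursor is modified by small nucleolar ribonucleoproteins (snoRNPs), cut and folded by assembly factors that act either on the small or on the large subunit, and trimmed by the RNA exosome, which also degrades faulty RNA. The pathway is a large consumer of energy in growing cells and is commonly high when cells grow or divide. By role, the genes comprised 5 subunits of RNA polymerase I, 2 shared by polymerases I and III, 7 subunits of polymerase III, 10 exosome subunits, 2 core proteins of the snoRNPs, 16 small subunit and 13 large subunit assembly factors. Of the remaining 3, GNL1 and NOL4L were caught by name. TAF4B is among the single genes that the study had placed in its module. It belongs to the general transcription factor TFIID of RNA polymerase II.

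Between 8735839 and 11755925 reads per pig were recovered from the deposited log2 values, and every one of the 58 genes had at least 33 reads in every pig. Levels are given as normalized counts, which are reads divided by the size factor of the pig and are not corrected for gene length, so only the same gene is compared between pigs. Differences are on the log2 scale of the deposited values, with their standard error (SE), from limma fitted to all genes and pigs with obesity group and sex as terms. The deposited scale removes only a part of the difference in depth between pigs, and the main counts and medians are given also with the whole size factor removed. Of the adipocyte markers listed, PLIN1, CIDEC and PPARG were measured and were present in every pig, while no marker of skeletal muscle, skin or B cells was among the genes tested. In whole tissue, fewer cells of a type and less RNA per cell cannot be told apart.

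The comparison of obese with lean pigs asks whether the machinery that makes ribosomes differs between the extremes of the index. None of the 58 genes passed an adjusted p of 0.05 in limma, against 0.0408% of all genes. At an unadjusted p under 0.05, 4 genes were lower in the obese pigs (NOL4L, EXOSC2, POLR3A and EXOSC4) and 0 were higher, against 7.88% and 6.81% of all genes. The log2 difference was below 0 for 44 genes, or 75.9%, where 52.5% of all genes were below 0. The median difference was -0.07, and that of all genes was -0.01. With the whole size factor 42 were below 0 and the medians were -0.05 and 0.00. For each of the 58 genes, the range of the obese pigs overlapped that of the lean pigs, and no gene of the table had ranges that were apart (0%). The 58 genes vary together, so the number below 0 is not a count of independent measurements.

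**Figure D1:**
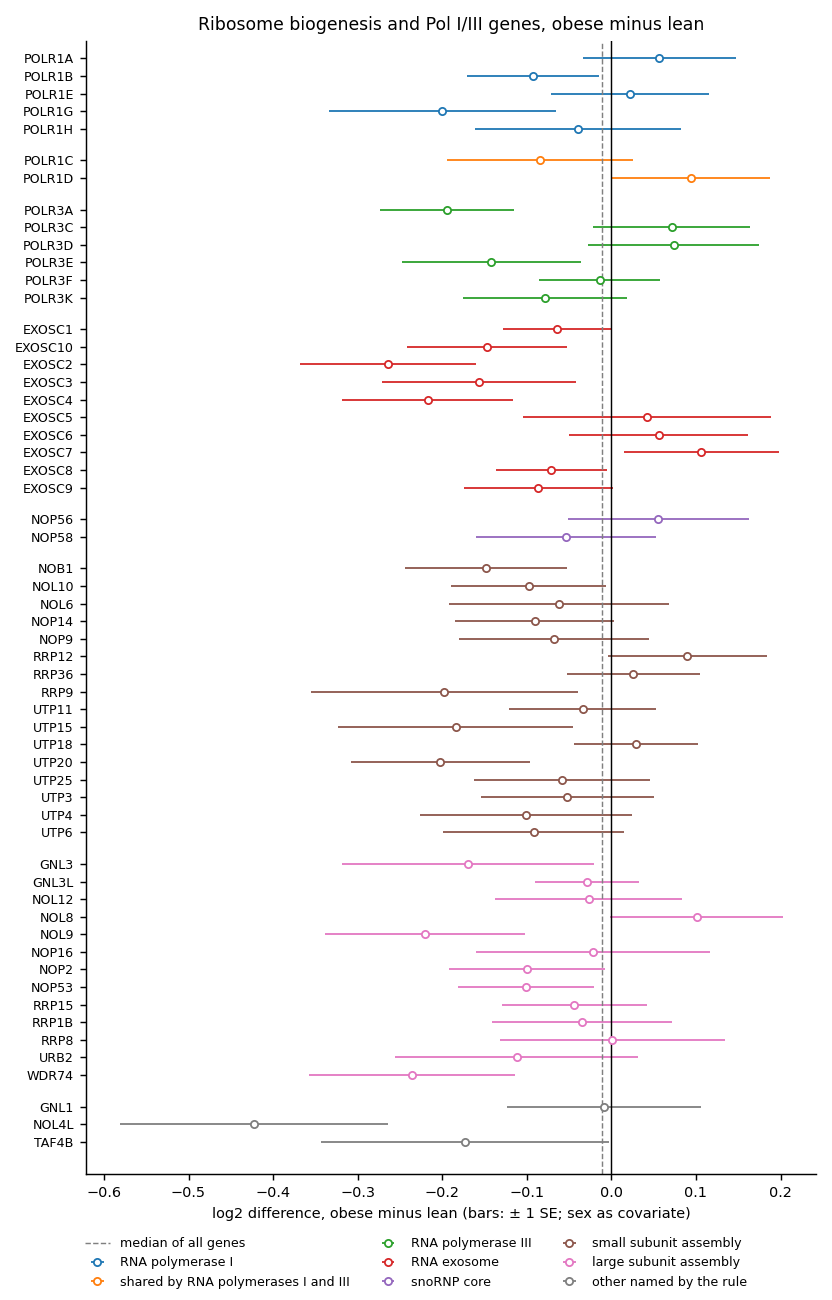
Log2 difference of obese minus lean pigs (12 in each group) for 57 of the 58 genes, grouped and coloured by role, with bars of 1 SE; open points did not pass an adjusted p of 0.05 in limma, and the dashed line is the median of all genes. All points are open and most lie left of 0, with NOL4L farthest to the left at -0.42.

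Among the polymerase I subunits, obese minus lean ran from -0.20 for POLR1G to 0.06 for POLR1A, the largest subunit, with 3 of 5 below 0. POLR1G is part of the dimer that helps the enzyme to start and elongate transcripts. It had normalized counts of 146 to 402 in lean pigs (median 201), 135 to 209 in intermediate pigs (median 183) and 131 to 261 in obese pigs (median 178). Its obese range lay inside the lean one apart from the lowest pigs, and the log2 difference of -0.20 (SE 0.13) had an adjusted p of 0.50 in limma. Without lean replicate 7, the pig with the highest POLR1G count, the log2 difference was -0.11. The subunits shared with polymerase III, POLR1C and POLR1D, form a dimer on which the enzymes are assembled. POLR1C had counts of 271 to 459 in lean pigs (median 327), 206 to 433 in intermediate pigs (median 337) and 247 to 529 in obese pigs (median 291). In 10 of 12 obese pigs POLR1C was below the lean median, while the highest count of all was also in an obese pig, and the log2 difference was -0.08 (SE 0.11). POLR1D had counts of 467 to 903 in lean pigs (median 729), 613 to 807 in intermediate pigs (median 703) and 592 to 1069 in obese pigs (median 796). Its log2 difference was 0.09 (SE 0.09), so the partners of the dimer had differences of opposite sign, neither of which passed the test.

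Of the 7 polymerase III subunits, 5 were below 0 in obese minus lean pigs. POLR3A (ENSSSCG00000010327) is the largest subunit and carries the catalytic centre. Its counts were 327 to 549 in lean pigs (median 397), 320 to 428 in intermediate pigs (median 381) and 290.3 to 468 in obese pigs (median 334). It was below the lean median in 10 of 12 obese and 11 of 12 intermediate pigs, and obese minus lean was -0.19 on the log2 scale (SE 0.08, adjusted p = 0.23, limma). POLR3E had counts of 247 to 419 in lean pigs (median 322) and 237 to 444 in obese pigs (median 267), with a log2 difference of -0.14 (SE 0.11). The ranges of POLR3A and POLR3E overlapped widely between the groups.

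The RNA exosome is a barrel of EXOSC4 to EXOSC9 closed by a cap of EXOSC1, EXOSC2 and EXOSC3, with EXOSC10 as a nuclear nuclease. Of the 10 subunits, 7 were below 0 in obese minus lean pigs. EXOSC2 (ENSSSCG00000005704), an RNA-binding cap protein, had counts of 179 to 313 in lean pigs (median 218), 142 to 279 in intermediate pigs (median 212) and 156 to 270.3 in obese pigs (median 179). The obese median lay at the lowest lean pig, 9 of 12 obese pigs were below the lean median, and the log2 difference was -0.26 (SE 0.10, adjusted p = 0.21, limma). EXOSC4 of the barrel had counts of 116 to 224 in lean pigs (median 149), 103 to 170.3 in intermediate pigs (median 143) and 105 to 170.2 in obese pigs (median 135). Its log2 difference of -0.22 (SE 0.10) had an adjusted p of 0.31. EXOSC7, also of the barrel, was the exosome subunit with the most positive difference, 0.11 (SE 0.09). Its counts were 996 to 1427 in lean pigs (median 1217), 989 to 1587 in intermediate pigs (median 1272) and 871 to 1752 in obese pigs (median 1362.5). Subunits of the same complex were therefore not all on one side of 0, and the spread of EXOSC7 was widest in the obese pigs.

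NOP56 and NOP58 are the paired core proteins of the snoRNPs that guide methylation of ribosomal RNA. NOP56 had counts of 241 to 458 in lean pigs (median 305), 234 to 405 in intermediate pigs (median 303) and 249 to 499.6 in obese pigs (median 287). The log2 differences of NOP56 and NOP58 between obese and lean pigs were 0.06 (SE 0.11) and -0.05 (SE 0.11). Of the 16 small subunit factors 13 were below 0, and none reached an unadjusted p of 0.05. UTP20, a large scaffold protein of the particle that cuts the early precursor, had counts of 274 to 644 in lean pigs (median 335), 255 to 452 in intermediate pigs (median 319) and 258 to 419 in obese pigs (median 306). In 10 of 12 obese pigs UTP20 was below the lean median, with a log2 difference of -0.20 (SE 0.11, adjusted p = 0.38, limma). NOB1, the nuclease that makes the last cut of the small subunit RNA, had counts of 298 to 435 in lean pigs (median 355), 263 to 407 in intermediate pigs (median 312) and 271 to 552 in obese pigs (median 301). Most obese pigs, 10 of 12, lay below the lean median of NOB1, but the highest count of the series was again in an obese pig, and the log2 difference was -0.15 (SE 0.10).

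Of the 13 large subunit factors 11 were below 0. NOL9 is a kinase that prepares RNA ends made when the spacer between the large subunit RNAs is cut. It had counts of 564 to 1142.5 in lean pigs (median 722), 479.5 to 738 in intermediate pigs (median 671) and 526 to 1111 in obese pigs (median 595). In obese minus lean pigs NOL9 differed by -0.22 on the log2 scale (SE 0.12, adjusted p = 0.39, limma). WDR74, a WD-repeat protein of nucleolar large subunit particles, had counts of 154 to 253 in lean pigs (median 192), 112 to 219.9 in intermediate pigs (median 186) and 118 to 280.3 in obese pigs (median 159), with a log2 difference of -0.24 (SE 0.12, adjusted p = 0.37). GNL3, also named nucleostemin, had counts of 334 to 656 in lean pigs (median 391), 209 to 501 in intermediate pigs (median 373) and 276 to 808 in obese pigs (median 329). NOL9, WDR74 and GNL3 thus had the same shape, with an obese median below the lean one and single obese pigs near or above the highest lean pig. URB2 had counts of 107 to 212 in lean pigs (median 152) and 104 to 290.3 in obese pigs (median 124). For 40 of the 58 genes, obese replicate 4 was among the highest 2 of the obese pigs, and for 36 obese replicate 6 was; both were males. How often this was so over all genes was not counted, so it is not shown to be particular to these genes. In GNL3 these pigs had 808 and 759, where the median of the obese pigs was 329, and in NOL9 they had 1111 and 1018.

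NOL4L (ENSSSCG00000007249), a nucleolar-protein-like gene with no well established part in ribosome assembly, had the largest difference. It had counts of 215 to 639 in lean pigs (median 297), 176 to 453 in intermediate pigs (median 350.2) and 175 to 299.9 in obese pigs (median 255). The highest lean count was that of replicate 6, a female, and the next lean pig had 426. In 11 of 12 obese pigs NOL4L was below the lean median, with log2 differences of -0.42 from lean (SE 0.16, adjusted p = 0.19, limma) and -0.38 from intermediate pigs (SE 0.16, adjusted p = 0.99). TAF4B had counts of 67.2 to 190.4 in lean pigs (median 96.1), 50.1 to 116 in intermediate pigs (median 96.8) and 54.0 to 175 in obese pigs (median 77.4), and a log2 difference from lean of -0.17 (SE 0.17), which was -0.11 without lean replicate 9, the pig with the highest TAF4B count.

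**Figure D2:**
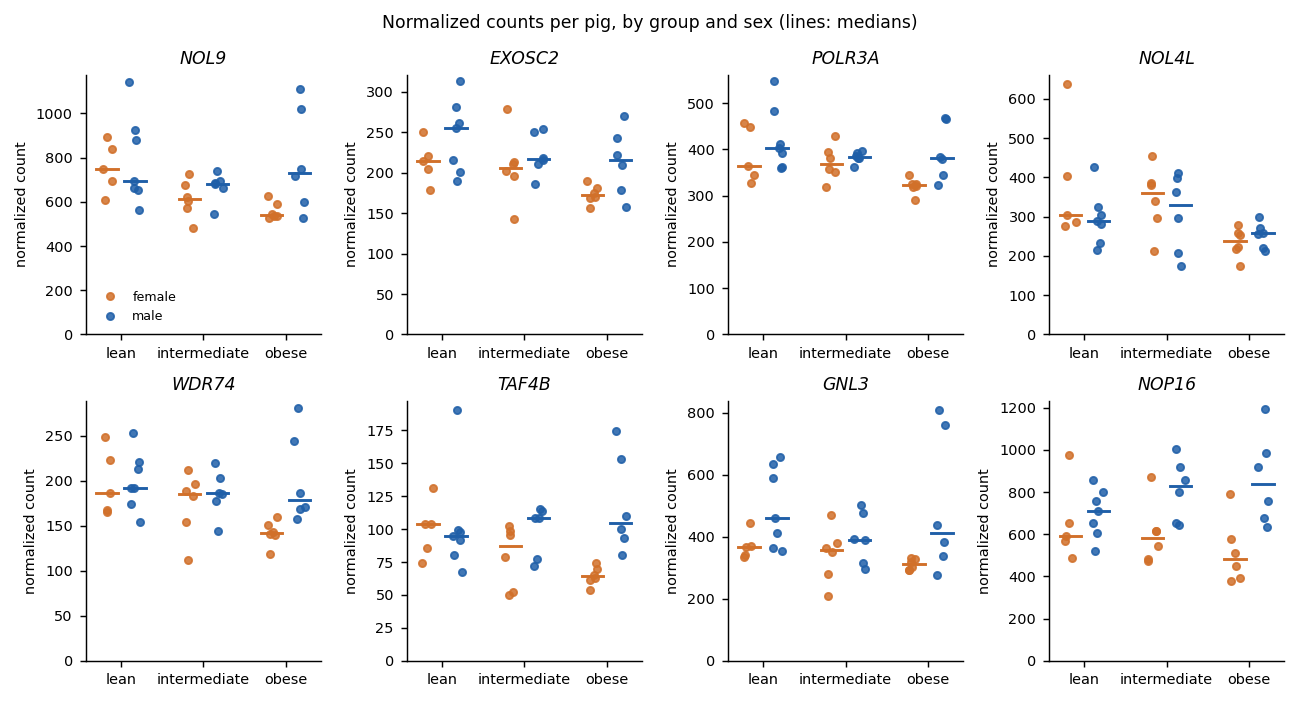
Normalized counts (reads divided by size factor) of NOL9, EXOSC2, POLR3A, NOL4L, WDR74, TAF4B, GNL3 and NOP16 in each of the 36 pigs, by obesity group, with females in orange and males in blue and a line at each median. The obese females lie in a narrow low band for NOL9 (529 to 625), WDR74 (118 to 160.2) and GNL3 (291 to 332), while obese males are spread up to 1111, 280.3 and 808.

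The comparisons with the intermediate pigs share their lean or obese pigs with the one above. Between intermediate and lean pigs none of the 58 genes was called, as was the case for all genes (0%). At an unadjusted p under 0.05, 6 were lower in the intermediate pigs (10.3%) and 0 higher, where 6.81% and 5.71% of all genes were. The 6 were UTP6, RRP15, EXOSC1, NOP2, RRP36 and NOL9, named here because of these values. UTP6, a small subunit factor bound to the U3 snoRNP, had counts of 372 to 624 in lean pigs (median 516), 286 to 626 in intermediate pigs (median 429) and 348 to 603 in obese pigs (median 498). Its log2 difference between intermediate and lean pigs was -0.25 (SE 0.11, adjusted p = 0.34, limma). RRP15, a large subunit factor, had counts of 305 to 541 in lean pigs (median 377), 253 to 488 in intermediate pigs (median 325) and 315 to 509.7 in obese pigs (median 367), so that its intermediate pigs were the lowest. The log2 difference between intermediate and lean pigs was below 0 for 51 of the 58 genes (87.9%), where 53.1% of all genes were below 0, and the medians were -0.10 and -0.01. With the whole size factor 47 were below 0 and the medians were -0.08 and 0.00. These, again, are not counts of independent measurements.

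Between obese and intermediate pigs none was called, again as for all genes (0%), and 37 of the 58 differences were above 0 with a median of 0.03, where 51.2% of all genes were above 0. At an unadjusted p under 0.05, RRP36 (0.20, SE 0.08) and POLR1A (0.19, SE 0.09) were higher in obese pigs and NOL4L was lower, against 2.06% and 2.22% of all genes, with adjusted p of 0.99 for each in limma. RRP36, a small subunit factor, had counts of 332 to 508 in lean pigs (median 407), 304 to 471 in intermediate pigs (median 368) and 362 to 537 in obese pigs (median 427). The median was thus lowest in the intermediate pigs for UTP6, RRP15 and RRP36. A linear trend over the groups called 0 of the 58 genes (0.0245% of all genes), and at an unadjusted p under 0.05 it was negative for 4 and positive for 0, where it was for 7.74% and 6.75% of all genes. Summed over the 58 genes, the mean normalized count was 21007 ± 1562 in the lean pigs, 19708 ± 1052 in the intermediate pigs and 20256 ± 2233 in the obese pigs (SD, n = 12 in each). The medians of these sums were 20838, 19911 and 19313, so by median the obese pigs were lowest. The highest sum, 25497, was that of an obese pig.

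The labels also give the sex of each pig. Between males and females 1 of the 58 genes was called in limma, where 2.19% of all genes were called. NOP16 (ENSSSCG00000014058), a nucleolar protein of large subunit assembly, was 1.35-fold higher in males, with a log2 difference of 0.43 (SE 0.11, adjusted p = 0.035). It had counts of 521 to 1192 in the 19 males (median 757) and 377 to 976 in the 17 females (median 568). In 18 of 19 males NOP16 was above the female median, although the ranges overlapped. Within the groups, the median was 709.7 in lean males and 592 in lean females, 829.5 and 580.4 in intermediate males and females, and 837 and 481 in obese males and females. The call was lost in 9 of the 36 fits that left out 1 pig, namely lean replicate 3, intermediate replicates 3 and 12 and obese replicates 1, 2, 3, 4, 6 and 11. In these 36 fits the log2 difference of NOP16 stayed between 0.39 and 0.49, and the adjusted p between 0.012 and 0.066.

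Of the 58 log2 differences between males and females, 48 were above 0 (82.8%), where 47.7% of all genes were. At an unadjusted p under 0.05, 15 were higher in males (25.9%) and 2 lower, where 8.01% and 10.3% of all genes were. The median difference was 0.10 for the 58 genes and -0.01 for all genes, and with the whole size factor it was 0.11 and 0.00, with 50 above 0. By role, 13 of 13 large subunit factors were above 0, with a median of 0.19, as were 14 of 16 small subunit factors (median 0.06), 8 of 10 exosome subunits (median 0.04) and 3 of 5 polymerase I subunits (median 0.02). The genes vary together in the same pigs, so neither these numbers nor the 48 above 0 count independent measurements. With the whole size factor or with the median of each pig subtracted, RRP15 was called as well, but with the whole size factor and voom weights together NOP16 alone was. Obese replicates 4 and 6, among the highest 2 obese pigs for 40 and 36 of the genes, are both males. What these 2 pigs together add to the differences between the sexes was not tested.

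RRP15 had counts of 286 to 541 in males (median 381) and 253 to 389.7 in females (median 336), with a log2 difference of 0.22 (SE 0.07, adjusted p = 0.081, limma). GNL3 had counts of 276 to 808 in males (median 413) and 209 to 471 in females (median 334), and was above the female median in 16 of 19 males, with a log2 difference of 0.38 (SE 0.12, adjusted p = 0.082). TAF4B had counts of 67.2 to 190.4 in males (median 99.4) and 50.1 to 131 in females (median 74.6). The log2 difference of TAF4B was 0.38 (SE 0.14, adjusted p = 0.13), and that of URB2 was 0.30 (SE 0.12, adjusted p = 0.16). EXOSC7, with counts of 1021 to 1752 in males (median 1305.5) and 871 to 1540.3 in females (median 1173), differed by 0.20 (SE 0.08, adjusted p = 0.15). POLR1D was among the 2 genes that were lower in males at an unadjusted p under 0.05. It had counts of 467 to 903 in males (median 686) and 601 to 1069 in females (median 778), with a log2 difference of -0.18 (SE 0.08, adjusted p = 0.21), and its dimer partner POLR1C had a log2 difference of 0.20 (SE 0.09, adjusted p = 0.23).

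**Figure D3:**
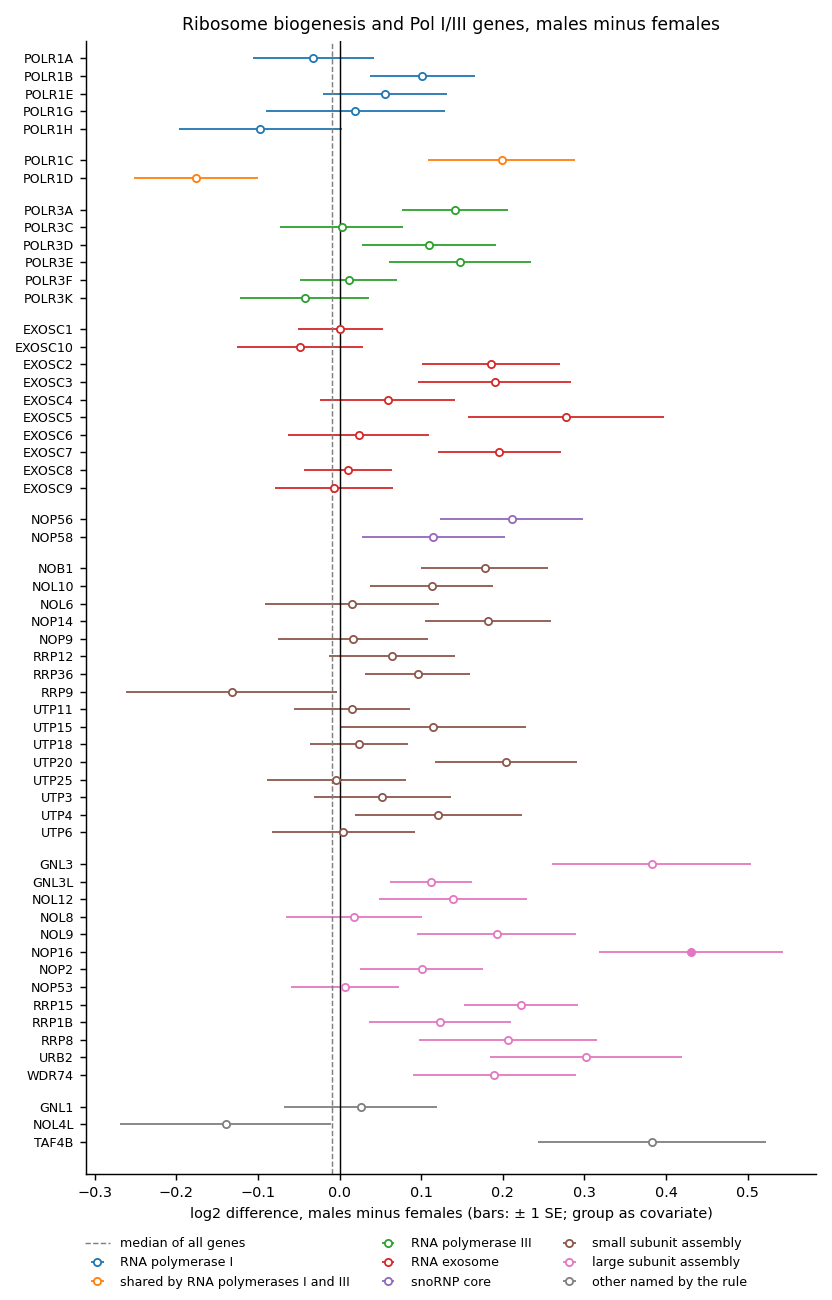
Log2 difference of 19 males minus 17 females for 57 of the 58 genes, grouped and coloured by role, with bars of 1 SE; the filled point (NOP16) passed an adjusted p of 0.05 in limma and the dashed line is the median of all genes. All 13 large subunit factors lie right of 0, and POLR1D, NOL4L and RRP9 lie farthest to the left.

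Cell type markers also differed between the sexes. Of the fibroblast markers tested (COL3A1, DCN, LUM and PDGFRA), 4 of 4 were higher in males at an unadjusted p under 0.05, with a median log2 difference of 0.63, and DCN was called. Their summed normalized count ran from 214080 to 647610 in males and from 128890 to 489770 in females. Of the 4 markers of T and NK cells, 3 were lower in males at an unadjusted p under 0.05 (median -0.91), and 2 of 3 adipocyte markers were (median -0.32). Their sums ran from 543 to 1078 in males and 598 to 2374 in females for T and NK cells, and from 16571 to 39490 in males and 20157 to 47268 in females for adipocytes. Of 5 macrophage markers, 5 were below 0 in males minus females and CD68 had an unadjusted p under 0.05 (-0.43, SE 0.21, adjusted p = 0.27), with sums of 1519 to 7821 in males (median 3334) and 1927 to 9613 in females (median 5042). Between obese and lean pigs, 5 of 5 macrophage markers were higher in the obese pigs at an unadjusted p under 0.05 (median 0.80), with sums of 1519 to 7630 in lean and 3314 to 9613 in obese pigs. Of the other markers, the endothelial PECAM1 had a log2 difference of -0.28 (SE 0.10, adjusted p = 0.17, limma), the adipocyte gene CIDEC one of 0.54 (SE 0.16, adjusted p = 0.11) and NKG7 of T and NK cells one of 0.84 (SE 0.29, adjusted p = 0.16). These were 1 of 2 endothelial, 1 of 3 adipocyte and 1 of 4 T and NK cell markers at an unadjusted p under 0.05. The endothelial sums ran from 7935 to 14240 in lean and from 6350 to 11050 in obese pigs, and PECAM1 differed by -0.47 in females (SE 0.15, adjusted p = 0.14). The part of these cells in the differences of the 58 genes was not tested.

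Since the study balanced the sexes within groups, obese and lean pigs were also compared within each sex. In females 0 of the 58 genes were called (0.0326% of all genes). At an unadjusted p under 0.05, 13 were lower in obese females (22.4%) and 0 higher, where 10.4% and 5.38% of all genes were. The log2 difference was below 0 for 48 genes (82.8%), where 60% of all genes were below 0, with medians of -0.13 and -0.07. Here too the genes vary together, so the numbers do not count independent measurements. With the whole size factor 43 were below 0 and 9 were lower at an unadjusted p under 0.05, where 51% and 6.89% of all genes were, and the medians were -0.07 and -0.01. In males 0 were called (0.00816% of all genes), 2 were higher and 1 lower at an unadjusted p under 0.05 (8.5% and 4.3% of all genes), and 35 were above 0 (54.7% of all genes) with a median of 0.02, while with the whole size factor 27 were above 0 (50.3% of all genes) with a median of -0.01. On that scale 1 was higher and 3 were lower in obese males at an unadjusted p under 0.05, where 7.64% and 5.66% of all genes were.

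In females the smallest p belonged to WDR74. Its counts were 165 to 249 in the 5 lean females (median 187) and 118 to 160.2 in the 6 obese females (median 142), so the ranges did not overlap. GNL3, with 334 to 444 in lean and 291 to 332 in obese females, was the other of 2 genes that were lower in obese females without overlap, which was so for 0.988% of all genes. The log2 difference of GNL3 was -0.31 (SE 0.22, adjusted p = 0.50, limma) and did not pass the test. For WDR74 the log2 difference was -0.52 (SE 0.17, adjusted p = 0.15, limma). NOL4L had counts of 275 to 639 in lean females (median 303) and 175 to 278 in obese females (median 238), with a log2 difference of -0.70 (SE 0.23, adjusted p = 0.15). The lean female next to the highest had 404. POLR3A had counts of 327 to 457 in lean females (median 364) and 290.3 to 344 in obese females (median 323), with a log2 difference of -0.33 (SE 0.11, adjusted p = 0.17). NOL9 had counts of 606 to 892 in lean females (median 749) and 529 to 625 in obese females (median 540.5), with a log2 difference of -0.48 (SE 0.17, adjusted p = 0.17). For NOL4L, POLR3A and NOL9 the ranges overlapped at their edges. TAF4B differed by -0.66 in females (SE 0.23, adjusted p = 0.17), with counts of 74.4 to 131 in lean and 54.0 to 74.6 in obese females.

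In males the smallest p belonged to EXOSC4, which was lower in obese males by -0.36 on the log2 scale (SE 0.13, adjusted p = 0.25, limma). EXOSC7 had a difference of 0.28 (SE 0.12, adjusted p = 0.32), with counts of 1021 to 1427 in lean males (median 1231) and 1167 to 1752 in obese males (median 1454). NOL8, a large subunit factor, had a difference of 0.27 (SE 0.13, adjusted p = 0.38), and UTP6 one of -0.28 (SE 0.14, adjusted p = 0.40). EXOSC4 and EXOSC7, which sit in the same barrel, thus lay on opposite sides of 0 in males. Among the macrophage markers, CD14, CSF1R, MSR1 and C1QA had log2 differences of 1.12, 1.16, 1.90 and 0.99 in obese minus lean males. Their adjusted p ran from 0.17 to 0.31 in limma, and CD68 had a difference of 0.72 (adjusted p = 0.40). The part of these cells in the differences within males was not tested.

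The difference between the sexes was itself tested as an interaction, for which 0 of the 58 genes were called (0.00816% of all genes). At an unadjusted p under 0.05, 8 had a more positive obese minus lean difference in males (13.8%) and 1 a more negative one, where 9.95% and 2.92% of all genes did. With the whole size factor these numbers were 5 and 3, where 6.44% and 5.44% of all genes did. RRP1B (ENSSSCG00000021698), a large subunit factor that also acts as a chromatin cofactor, had the smallest p. Its counts were 312 to 496 in lean males (median 384), 409.5 to 515 in obese males (median 466), 377 to 507 in lean females (median 428) and 318 to 387 in obese females (median 349). The median was thus higher in obese males and lower in obese females, with an interaction of 0.64 on the log2 scale (SE 0.19, adjusted p = 0.20, limma). The interaction was 0.90 for TAF4B (SE 0.32, adjusted p = 0.24), 0.71 for NOP16 (SE 0.26, adjusted p = 0.26), 0.54 for WDR74 (SE 0.23, adjusted p = 0.32) and 0.46 for UTP25 (SE 0.20, adjusted p = 0.32), a helicase-like protein of the small subunit particle. UTP25 had counts of 198 to 268.5 in lean females and 172 to 218 in obese females, and of 153 to 237 in lean males and 171 to 352 in obese males. The differences between obese and lean pigs in these genes are therefore not shown to depend on sex. The summed T and NK cell markers ran from 598 to 1012 in lean females and from 851 to 2374 in obese females. In obese minus lean females the adipocyte gene CIDEC had a log2 difference of 0.80 (SE 0.24, adjusted p = 0.13, limma), and TOP2A, 1 of 2 markers of dividing cells tested, one of 1.55 (SE 0.68, adjusted p = 0.27). The summed markers of dividing cells ran from 75.1 to 236 in lean females and from 129 to 729 in obese females. The part of these cells in the differences within females was not tested.

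**Figure D4:**
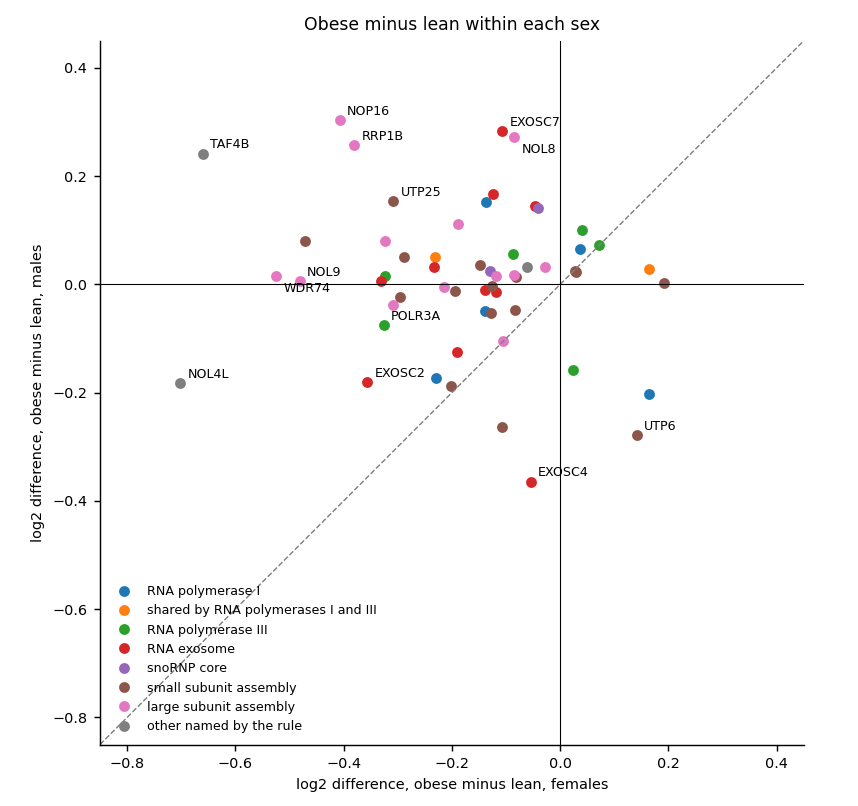
Log2 difference of obese minus lean pigs in females (horizontal axis) and in males (vertical axis) for 57 of the 58 genes, coloured by role; the dashed line marks equal differences. Most points lie left of the vertical 0 line, while they are spread on both sides of the horizontal one, and TAF4B, NOP16, RRP1B and UTP25 lie in the upper left.

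The genes were also described by how they vary together among pigs of the same group and sex, as Pearson's r of the log2 values over the 36 pigs after removing group and sex. The pairs share libraries and depth, so the values are a description without a test. Over the 1653 pairs the median r was 0.32 on the deposited scale, where all pairs of genes had a median of 0.044. With the whole size factor it was 0.23, where all pairs of genes had a median of 0.00, and the values that follow are on that scale. The median r was 0.34 among the small subunit factors, 0.31 among the large subunit factors, 0.20 among the polymerase III subunits, 0.16 among the polymerase I subunits and 0.12 among the exosome subunits. On the deposited scale these medians were 0.43, 0.40, 0.26, 0.30 and 0.24, so the order of the polymerases depended on the scale. The core snoRNP proteins NOP56 and NOP58 had an r of 0.71. The highest pairs were GNL3 with POLR1C (0.85), NOL9 with TAF4B (0.83) and GNL3 with URB2 (0.82), of which GNL3 and URB2 share the large subunit role. All of these genes belong to the study's Lightyellow module, made from correlations over these same pigs, so the pairs are not independent evidence. In each of these genes obese replicates 4 and 6 were the highest of the obese pigs. What these pigs add to the values of r was not tested.

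Of the 58 genes, 50 had a positive median r with the others, highest for POLR3E (0.48), NOL6 (0.47) and TAF4B (0.47). The remaining 8 included POLR1D (-0.19), POLR3K (-0.14), EXOSC1 (-0.14), EXOSC7 (-0.10), POLR3F (-0.08), NOL4L (-0.08) and NOP53 (-0.03). On the deposited scale 54 genes had a positive median r, among them EXOSC1 (0.06), POLR3F (0.10), NOL4L (0.09) and NOP53 (0.10), while POLR1D was at -0.04. POLR1D and POLR1C, which form a dimer, had an r of -0.19, and the lowest pair was POLR1D with POLR3A (-0.61). These were -0.04 and -0.38 on the deposited scale, where EXOSC7 with RRP9 was lowest (-0.53). POLR1D and NOL4L also had negative log2 differences between males and females, whereas EXOSC7 had a positive one. Among the 9 genes that the study placed in its Lightyellow module (GNL3, NOL9, POLR1C, POLR3E, EXOSC2, NOB1, URB2, WDR74 and TAF4B) the median r was 0.70, and among the other 49 genes it was 0.17, against 0.71 and 0.28 on the deposited scale. That module was made from the correlations of these same samples, so its value is not independent evidence. The same holds for the high median r of POLR3E and TAF4B given above. The median SD of the 58 genes over the pigs was 0.23 on the log2 scale, against 0.32 for all genes, and 8 of them varied more than the median gene, most of all TAF4B (0.41). This comparison was not matched for level. Of the 58 genes, 38 had a mean level above that of the median gene. Their lowest count in any pig was 33 reads, where other genes went down to 6.

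**Figure D5:**
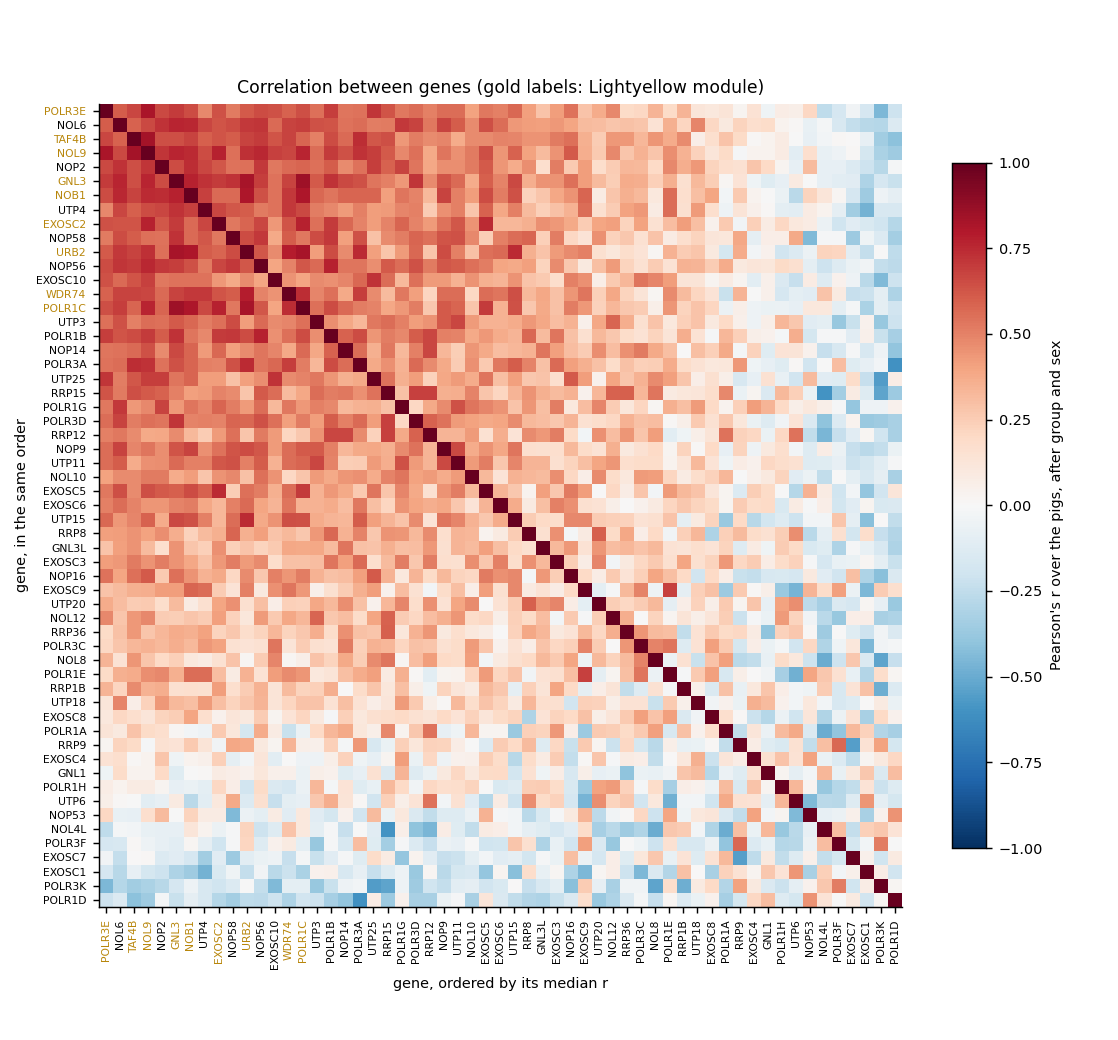
Pearson's r between each pair of 57 of the 58 genes over the 36 pigs after removing group and sex (colour scale from -1 to 1, whole size factor), ordered by the median r of each gene, with genes of the Lightyellow module labelled in gold. POLR3E heads the order with a median r of 0.48 and POLR1D ends it at -0.19.

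By likeness over all 12253 genes on the same scale, the genes closest to NOL9 were TAF4B (0.83), POLR3E (0.82) and RIOK1 (0.80), and those closest to POLR1C were PPAN (0.85), GNL3 (0.85) and URB2 (0.82). NOL9, TAF4B, POLR3E, POLR1C, GNL3 and URB2 are genes of the Lightyellow module, so their likeness to each other is not independent evidence. For NOP16 the closest were TRIP10, NT5DC2 and FBXO21 (each 0.73), none of which belongs to the 58 genes.

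Genes of the same pathway that the symbol rule does not cover were counted from a separate list, of which 66 of 95 were tested. None of the 66 was called in any comparison of obese with lean pigs or between the sexes in limma. Between obese and lean pigs, 1 was higher (1.52%) and 3 lower (4.55%) at an unadjusted p under 0.05, against 6.81% and 7.88% of all genes, with 47 of 66 below 0 and a median of -0.03. WDR12 of the large subunit pathway was the higher one, with a log2 difference of 0.32 (SE 0.11, adjusted p = 0.13), and LAS1L and PELP1, which work together on the spacer of the large subunit RNA, had differences of -0.23 and -0.29 (adjusted p = 0.17 for both). Between the sexes 10 were higher in males (15.2%) and 1 lower (1.52%) at an unadjusted p under 0.05, against 8.01% and 10.3% of all genes, with 49 of 66 above 0 and a median of 0.09. The largest of these were NOC3L with 0.34 (SE 0.10, adjusted p = 0.056) and PDCD11 with 0.32 (SE 0.10, adjusted p = 0.080). FBL, the methyltransferase that works with NOP56 and NOP58, had a log2 difference of 0.24 (SE 0.10, adjusted p = 0.17).

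Of 16 factors that recruit or control polymerases I and III, 14 were above 0 in males minus females, with a median of 0.08. MYC, which raises transcription by both polymerases, had a log2 difference of 0.40 (SE 0.16, adjusted p = 0.19, limma), and MAF1, which represses polymerase III, one of -0.19 (SE 0.06, adjusted p = 0.057). With the size factor wholly removed, NOC3L (0.35, adjusted p = 0.033) and MAF1 (-0.18, adjusted p = 0.045) were called between the sexes in limma. Of 9 subunits of polymerase II, 7 were above 0 with a median of 0.02, and 0 had an unadjusted p under 0.05. Among 6 partners of the exosome, 4 were lower in obese than in lean females at an unadjusted p under 0.05 (DIS3, RBM7, ZCCHC7 and ZCCHC8), where 10.4% of all genes were, with a median over the 6 of -0.32. In obese minus lean males all 6 were above 0 with a median of 0.12, and the interaction reached an unadjusted p under 0.05 for 4 of them, where 9.95% of all genes had a more positive difference in males, with adjusted p of 0.23 to 0.36. After removal of the whole size factor these numbers were 3 in females and 3 for the interaction, where 6.89% and 6.44% of all genes were, and the medians were -0.26 in females and 0.10 in males. Over both sexes, 5 of the 6 partners were below 0 in obese minus lean pigs and 5 were above 0 in males minus females, with 0 at an unadjusted p under 0.05 in either. In obese minus lean pigs 13 of the 16 factors and 5 of the 9 polymerase II subunits were below 0, where 52.5% of all genes were, with 1 of the 16 (6.25%) and 1 of the 9 (11.1%) lower at an unadjusted p under 0.05, against 7.88% of all genes.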

How the data were processed

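RNA of subcutaneous adipose tissue from 36 pigs was sequenced as paired-end TruSeq libraries after selection of polyadenylated RNA. Per the study's methods, the authors cleaned reads with FastQC, aligned them with STAR (Sscrofa10.2), took counts per gene from HTSeq and dropped weakly expressed genes. The authors estimated the library size factors with DESeq and normalized with voom of limma. Rerun here on the recovered whole reads with the size factor as library size, voom gave the deposited values within 5.16e-06 on the log2 scale, so the values the authors deposited, which are log2, equal the log2 of the reads plus 0.5, divided by the size factor plus 1, and scaled by a constant; 99.9% of values gave whole reads within 0.1 in the median pig. The size factors ran from 0.796 to 1.18. The kit does not mark strand, so reads of overlapping antisense genes cannot be told apart.

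The log2 values of all 12253 genes were fitted with limma 3.58.1 in R 4.3.3 (empirical Bayes moderation with an intensity trend), with group and sex as terms or 1 mean per group and sex, and Benjamini-Hochberg adjustment over all genes at 0.05. The study's methods mention a gender correction; the deposited values, being whole reads in steps, do not hold one, and sex was therefore fitted. Other steps used Python 3.11.15, numpy 2.4.6, pandas 2.3.3 and scipy 1.17.1. The fit was tested on simulated data. Symbols came from a table of Ensembl pig gene IDs. The members and lists were chosen with earlier results of these data known. The genes named are those called in any comparison, the 8 with the smallest p between obese and lean pigs, the 5 with the smallest p between the sexes, within each sex and in the interaction, the one with the smallest p of each role, and the 9 of the Lightyellow module; others are named where a small count or an extreme value needed a name. As alternatives, the fit was repeated without sex, on the compared groups alone, by limma without the trend, after removal of the lowest 25% of genes, after subtraction of pig medians, with 2 in place of 0.5 added to reads, with voom weights and without the 2 pigs farthest on the first principal component; the whole size factor, alone and with voom weights, and the removal of single pigs were added after seeing the data. Lanes, families and traits per pig were not analysed here. Values of 1 gene that enters the counts are not reported here.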

Additional observations from a re-analysis of the deposited data

Results flagged for a closer look

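Each of the 24 named genes was looked at within the 6 groups of 1 sex (5 to 7 pigs each, 144 in all) for a pig that lay far from the others by Dixon's criterion. There were 6 such values in the 144 groups. Chance gives about 1 in 20, so this number is not above what chance gives. POLR1G had a normalized count of 402 in lean replicate 7, a male, where the other 6 lean males had 146 to 242. TAF4B had 190.4 in lean replicate 9, a male, where the other 6 had 67.2 to 99.4. EXOSC4 had 116 in lean replicate 8, a female, where the other 4 lean females had 144 to 155. POLR1C had 205.5 in intermediate replicate 3, a female, where the other 5 had 309 to 359.5. NOP16 had 871 in intermediate replicate 10, a female, where the other 5 had 472 to 617. NOL8 had 382 in obese replicate 4, a male, where the other 5 had 298 to 323. Without the pig named, obese minus lean on the log2 scale moved from -0.20 to -0.11 for POLR1G, from -0.17 to -0.11 for TAF4B, from -0.22 to -0.26 for EXOSC4 and from 0.10 to 0.06 for NOL8, and the sex difference of NOP16 moved from 0.43 to 0.47.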

How the results depend on the processing

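Over 659 alternative values of the results, 635 kept their direction and their side of the threshold. The counts of 0 called genes between obese and lean, intermediate and lean, and obese and intermediate pigs, for the trend, within each sex and for the interaction were 0 under each alternative run. Between males and females 2 genes (NOP16 and RRP15) were called with the median of each pig subtracted and with the whole size factor, and 0 to 2 when single pigs were left out, by which 12 of 36 fits changed the count. The median correlation between the genes moved from 0.32 to 0.23 with the whole size factor. Between obese and lean males the median log2 difference of the genes turned from 0.02 to -0.01 with the whole size factor and to -0.01 with the median of each pig subtracted, with 35, 27 and 24 genes above 0. No called difference changed direction. The cause was not tested. No paired analysis was possible because the pigs of the groups are different animals, the labels number the 36 pigs in 1 series, and the replicate numbers used here only name the pigs. The depth was at least 33 reads per gene and pig, and the number of pigs per group and sex limits the precision more within sexes than between groups.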
